A study of Mus musculus with 960 samples.

Results

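Orphan CpG islands are CpG-rich stretches of the genome that lie away from any known start of a gene. Described here are accessible windows of such composition from a mouse breast tumour, with midpoints away from annotated starts. The study isolated cells from a breast tumour of the MMTV-PyMT mouse, in which a mammary tumour virus promoter drives the polyoma middle T oncogene, mainly in mammary epithelium. Fixed cells were stained, transposed in bulk by Tn5 and sorted 1 per well (Pi-ATAC, single-cell ATAC-seq with protein indexing). The labels list 960 wells on 10 plates. EpCam, which marks epithelial cells, was stained in every well, together with HIF1a, the subunit of the hypoxia-inducible factor that is stable in low oxygen, in 768 wells (8 plates), or with CD45, which marks leukocytes, in 192 wells (2 plates). All wells shared the tumour model. The methods give an age of 3 months for the tumour mice. The paper describes the cells of each staining as taken from the same mouse breast tumour, and no source read here names the animal of a well. The deposited data are a single list of 50000 windows of 500 bp on the mouse build mm9, centred on peak summits that were called on pooled cells, so the list is 1 sample without replicates, scores or read counts. The methods state that cells of 1 cell or tissue condition were pooled for the calling, without saying if the CD45 plates counted as part of the same condition.

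A window was taken as an orphan CpG island window when its midpoint lay more than 1 kb from the start of every transcript of any biotype in GENCODE M1, its GC content was at least 55% and its CpG observed/expected ratio was at least 0.65. This ratio divides the CpG dinucleotides found by the number that the C and G content would give. The rule took 961 of the 50000 windows, and it used annotation and sequence only. Another 11072 windows had the same composition within 1 kb of a start, 29260 lay away from starts without that composition, and 8707 lay at starts without it. The closest orphan window was 1003 bp from a start and the farthest window left out by distance was 998 bp away. Within 100 bp of the distance limit, 68 windows passed and 75 did not. Within 1 percentage point of the GC limit the numbers were 28 and 31, and within 0.02 of the observed/expected limit they were 72 and 77.

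CpG dinucleotides are rare in most of the mouse genome because methylated cytosine mutates readily, and they persist where the DNA stays unmethylated in the germ line. Many such islands sit at promoters, where they recruit proteins that bind unmethylated CpG and where Polycomb or Trithorax complexes can act. Islands away from annotated starts have been described as unannotated or tissue-restricted promoters, as enhancers, and as CpG-rich exons of developmental genes. Both kinds can be accessible to Tn5 without being transcribed.

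Stretches of 200 bp show what these windows look like on the plus strand of mm9. They were taken from windows in introns or intergenic sequence, within the limits given with the methods, and 1 per called peak. The first pair had the most CpG dinucleotides among these, at chr15:68194226-68194425 (intergenic, nearest protein-coding start Gm10240) and chr15:64144261-64144460 (in an intron of Asap1, which encodes an Arf GTPase-activating protein). The whole windows held 90 and 87 CpG, with GC contents of 82.4% and 80.6%. The next pair comes from peaks that kept many windows, 8 and 6, upstream of Dusp6 (chr10:98724395-98724594) and of Fat1 (chr8:46023341-46023540). Other peaks kept 6 as well, and that of Fat1 was taken for its CpG count. The last pair comes from the windows farthest from any annotated start among these, at chr16:39984456-39984655 and chr10:109892945-109893144. Capitals mark each CpG.

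Gm10240 side: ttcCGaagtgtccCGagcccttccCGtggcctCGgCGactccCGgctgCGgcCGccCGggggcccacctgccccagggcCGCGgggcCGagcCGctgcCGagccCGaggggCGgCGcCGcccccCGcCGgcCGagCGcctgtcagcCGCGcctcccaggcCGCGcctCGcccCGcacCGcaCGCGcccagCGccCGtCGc
Asap1 intron: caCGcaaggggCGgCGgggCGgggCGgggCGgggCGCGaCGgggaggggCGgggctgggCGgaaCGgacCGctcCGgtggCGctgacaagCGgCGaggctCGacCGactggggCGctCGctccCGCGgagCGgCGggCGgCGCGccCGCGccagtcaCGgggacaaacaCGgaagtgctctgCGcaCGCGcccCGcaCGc
Dusp6 upstream: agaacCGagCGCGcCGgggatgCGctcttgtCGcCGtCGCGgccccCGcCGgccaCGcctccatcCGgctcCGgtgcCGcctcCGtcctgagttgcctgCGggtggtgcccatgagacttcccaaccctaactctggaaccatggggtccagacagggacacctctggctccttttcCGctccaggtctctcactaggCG
Fat1 upstream: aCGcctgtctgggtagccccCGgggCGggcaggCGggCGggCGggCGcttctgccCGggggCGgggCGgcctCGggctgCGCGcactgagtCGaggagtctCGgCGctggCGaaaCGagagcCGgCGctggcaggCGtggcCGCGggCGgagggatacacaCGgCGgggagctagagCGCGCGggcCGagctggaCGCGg
Lsamp RefSeq start: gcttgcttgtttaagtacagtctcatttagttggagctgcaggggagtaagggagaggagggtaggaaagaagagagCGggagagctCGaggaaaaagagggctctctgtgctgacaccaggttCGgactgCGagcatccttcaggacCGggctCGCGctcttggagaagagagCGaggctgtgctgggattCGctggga
E2f7 side: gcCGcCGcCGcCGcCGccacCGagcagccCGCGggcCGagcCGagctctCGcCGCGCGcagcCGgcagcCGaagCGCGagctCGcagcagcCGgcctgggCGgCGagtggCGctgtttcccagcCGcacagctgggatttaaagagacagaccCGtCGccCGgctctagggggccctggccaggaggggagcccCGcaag

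Matches to the CTCF consensus are shown for the 2 most distant orphan windows that held one, near Ccne1 (chr7:38846148-38846347, 38121 bp from the nearest start for the window) and near Foxk1 (chr5:142843590-142843789, 33636 bp). CTCF is the zinc finger protein that holds chromatin loops and insulates neighbouring domains. Capitals mark the match in these stretches.

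Ccne1 side: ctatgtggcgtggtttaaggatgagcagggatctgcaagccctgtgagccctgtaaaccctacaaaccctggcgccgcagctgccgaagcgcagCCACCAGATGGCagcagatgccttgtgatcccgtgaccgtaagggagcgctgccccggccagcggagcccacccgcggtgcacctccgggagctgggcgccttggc
Foxk1 side: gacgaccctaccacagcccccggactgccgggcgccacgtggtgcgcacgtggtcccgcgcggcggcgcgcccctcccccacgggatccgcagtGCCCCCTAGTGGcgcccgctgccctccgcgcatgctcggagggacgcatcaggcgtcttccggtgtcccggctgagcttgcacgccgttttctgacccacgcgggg

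The orphan windows had a median GC content of 64.2% (range 55% to 82.6%) and a median of 40 CpG per window (21 to 90). The CpG island windows at starts had medians of 65.6% and 44, and the CpG-poor windows away from starts had medians of 50.0% and 7. Since composition chose the members, these values are a description. The median observed/expected ratio was 0.788, against 0.842 for the island windows at starts. The Dusp6 and Fat1 windows shown above reached 0.939 and 0.991, and the window at the Lsamp start was at 0.667, close to the limit.

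Orphan windows were placed in genes differently from either neighbouring class. Of the 961, 496 were intergenic (51.6%, exact 95% interval 48.4% to 54.8%), 277 lay in introns (28.8%, 26.0% to 31.8%) and 147 in coding exons (15.3%, 13.1% to 17.7%). Coding exons held 9.55% of the CpG island windows at starts (9.01% to 10.1%) and 2.29% of the CpG-poor windows away from starts (2.12% to 2.46%), so the intervals lay apart. The share in coding exons was 11.9% (9.46% to 14.7%) among orphan windows over 2 kb from a start and 11.7% (8.94% to 15.0%) in peaks that kept 2 or more windows, and both of these intervals overlap that of the island windows at starts. Introns held 48.1% of the CpG-poor windows. A further 19 orphan windows were in 3′ UTRs, 12 in 5′ UTRs and 10 in other exons. These intervals cover counting error only, and windows near each other are not independent, so no test was made here or below.

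The nearest annotated start was often close. The median distance was 3920 bp, against 15525 bp for the CpG-poor windows away from starts, and 330 orphan windows (34.3%, 31.3% to 37.4%) lay at 1 to 2 kb. Only 8.47% of the CpG-poor windows did (8.16% to 8.80%). At 10 to 100 kb the order was the other way, with 270 orphan windows (28.1%) and 53.3% of the CpG-poor windows. Beyond 100 kb there were 11 orphan windows (1.14%, 0.573% to 2.04%), against 8.34%. The nearest start belonged to a transcript of a protein-coding gene for 766 orphan windows. On the transcribed side of the nearest start lay 522 orphan windows (54.3%), much like the CpG-poor windows away from starts (54.3%) and all windows (51.3%).

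**Figure D1:**
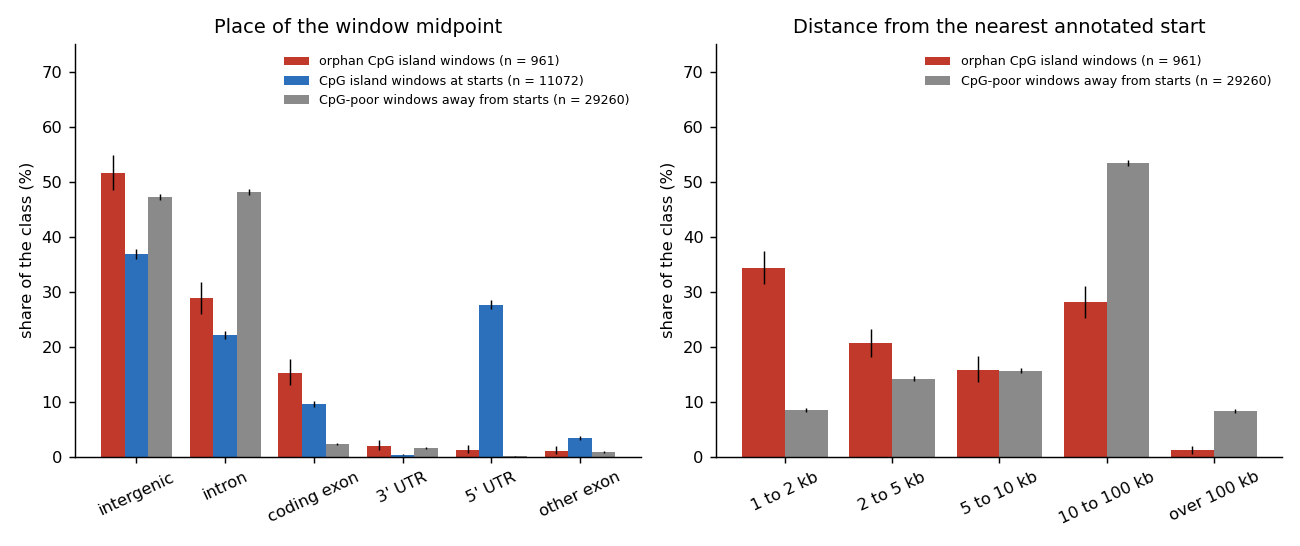
Shares of each class of windows (%, vertical axes) by place of the midpoint (left) and by distance from the nearest annotated start (right); bars are shares and lines exact 95% intervals, which cover counting error only. Coding exons hold 15.3% of the orphan windows and 2.29% of the CpG-poor windows away from starts, and 34.3% against 8.47% lie at 1 to 2 kb.

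The coding-exon windows, like those in introns, lay close to starts, and they often lay close to transcript ends. Their median distance from a start was 2024 bp, against 1830 bp for the orphan windows in introns. Of the 147, 47 (32.0%, 24.5% to 40.2%) lay within 1 kb of a transcript end, against 12.1% of all orphan windows and 8.73% of all windows. Coding-exon windows of the other classes were not compared. All 4 windows of Lor, which encodes loricrin of the cornified skin envelope, lay in its coding exon between 1224 bp and 2461 bp from the start, with GC contents from 60.8% to 75.4%. Fzd1 and Fzd7, which encode Wnt receptors with little or no intron sequence, had 2 coding-exon windows each, at 1148 bp and 1531 bp and at 1624 bp and 1882 bp. The highest observed/expected ratio of any orphan window, 1.29, was in a coding exon of Snx20, a sorting nexin gene, and was singled out after the values were seen.

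The islands around the windows were found by scanning mm9 for stretches of at least 200 bp with a GC content of 50% or more and an observed/expected ratio of 0.6 or more. The midpoint lay on such an island for 957 of 961 orphan windows, with island lengths from 394 bp to 4698 bp. The middle 50% of these lengths ran from 731 bp to 1545 bp, against 892 bp to 1499 bp for the islands under windows at starts. For 148 windows (15.4%, 13.2% to 17.8%) the island itself reached an annotated start, and their midpoints lay 1003 bp to 1882 bp from it. The islands of the other orphan windows held no annotated start in this scan.

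Few of the islands away from starts held a window. The list keeps only the best-scoring 50000 windows, so an island without one is not shown to be closed. Of 54766 islands with no annotated start within 1 kb, 2245 (4.10%) were overlapped by a window of any composition, against 10548 of 18913 islands at starts (55.8%). The share rose with length in both groups. Away from starts it was 3.03% under 500 bp, 6.98% from 500 bp to under 1000 bp and 16.7% (14.8% to 18.7%) at 1000 bp or more, and at starts the longest class reached 78.6%. Islands away from starts with a window had a median of 20 CpG, and those without had 11. With islands of at least 500 bp, GC of 55% and a ratio of 0.65, 458 of 2739 away from starts (16.7%) and 7551 of 9676 at starts (78.0%) were overlapped.

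The share fell with distance. Of the 2739 longer and richer islands away from starts, those 1 to 5 kb from a start were overlapped in 28.9% of cases (25.4% to 32.6%), those at 5 to 10 kb in 22.0%, those at 10 to 100 kb in 13.7% (11.8% to 15.7%), and those farther away in 2.58% (1.29% to 4.56%). The share also followed CpG density, from 11.6% at a ratio under 0.70 to 40.7% (30.2% to 51.8%) at 0.90 or more. Over all 54766 islands it was 3.61% under 0.70, 6.60% (5.70% to 7.60%) from 0.80 to under 0.90 and 6.04% (4.77% to 7.54%) at 0.90 or more, so it did not keep rising.

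Later annotation put starts on a part of these islands. RefSeq promoter sequences, taken from a table built on GRCm38.p6 and without chromosome 18, were placed on mm9 by exact sequence match, and 31443 of 32609 were placed once. A RefSeq start lay within 1 kb of 187 of the 919 orphan windows on the other chromosomes (20.3%, 17.8% to 23.1%), against 1039 of 28047 CpG-poor windows away from starts (3.70%, 3.49% to 3.93%). The placed set covers 81.0% of the CpG island windows at annotated starts, so it misses some starts. The 187 windows belonged to 156 RefSeq genes, 97 of them protein-coding and 59 long noncoding, with a median distance of 129 bp. Only 64 of the 156 had the same name as the protein-coding gene to which their windows were assigned for the gene counts below. In 79 cases every GENCODE M1 start was more than 10 kb away.

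The farthest orphan window, 321776 bp from an annotated start, was 79 bp from the RefSeq start of Lsamp, a neuronal adhesion molecule. It is the Lsamp stretch printed above. A window in an intron of Esrrg, an orphan nuclear receptor, lay 42078 bp from an annotated start and 16 bp from a RefSeq start of the same gene. Windows for Hip1, a clathrin adaptor, and Sipa1l2, a regulator of Rap signalling, were 55622 bp and 77269 bp from annotated starts and 271 bp and 116 bp from their own RefSeq starts. Hdac4, a histone deacetylase, had a window 146 bp from a RefSeq start and 32094 bp from an annotated one. The 3 windows assigned to Eif4e3, whose annotated gene body spans the region, lay 371 bp, 712 bp and 1235 bp from a RefSeq start of Foxp1, a forkhead factor expressed in many epithelia. Of these genes, Esrrg, Hip1, Sipa1l2 and Hdac4 were picked after the values were seen.

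Islands with a RefSeq start were overlapped more often than the others. Among the longer and richer islands away from GENCODE starts, chromosome 18 aside, 107 of 219 with a RefSeq start within 1 kb had a window (48.9%, 42.1% to 55.7%), and 337 of 2435 without did (13.8%, 12.5% to 15.3%). Restricting both to 1000 bp or more gave 52.5% and 25.6%. After the windows on a start-bearing island, those at a RefSeq start and the 35 on chromosome 18 were set aside, 606 orphan windows (63.1%) had neither kind of start by these measures. In the scan for longer and richer islands, which slides a window of 500 bp, 22 of them lay on an island that holds an annotated start. The called peak of 57 of the 606 (9.41%) also kept a window at a start. Of the 606, 142 (23.4%) lay 1 to 2 kb from an annotated start and 191 lay 10 kb or more from every annotated start.

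**Figure D2:**
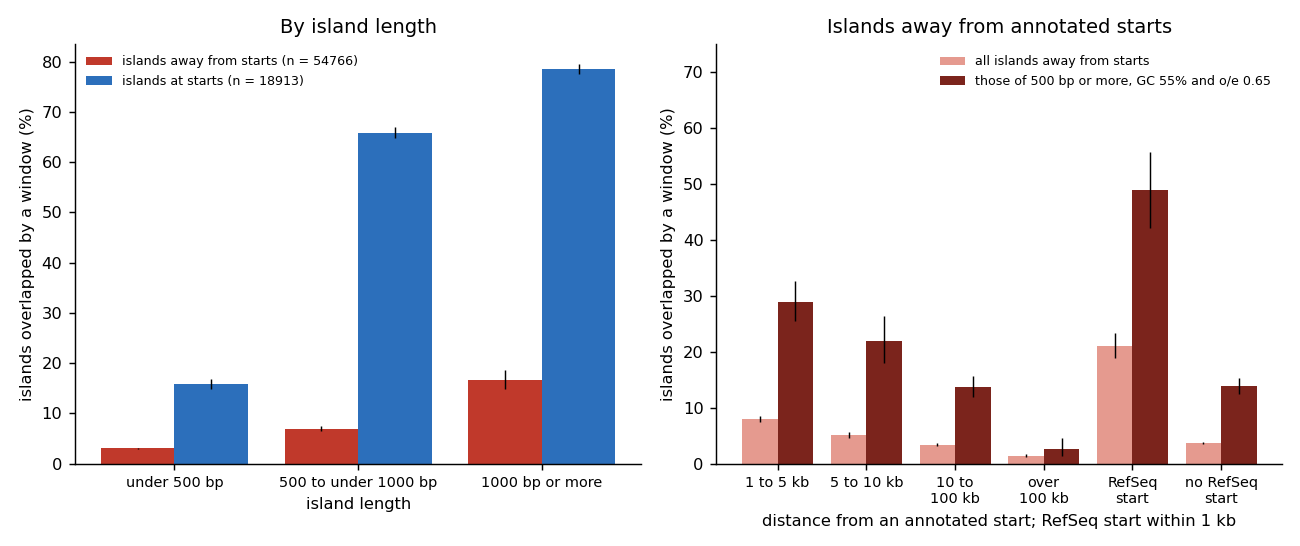
Share of scanned CpG islands overlapped by at least 1 window (%, vertical axes), by length for islands at and away from annotated starts (left), and for islands away from starts by distance and by a RefSeq start within 1 kb (right); lines are exact 95% intervals. The share rises with length, from 3.03% to 16.7% away from starts, and among the longer, richer islands it is 48.9% with a RefSeq start and 13.8% without.

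**Figure D3:**
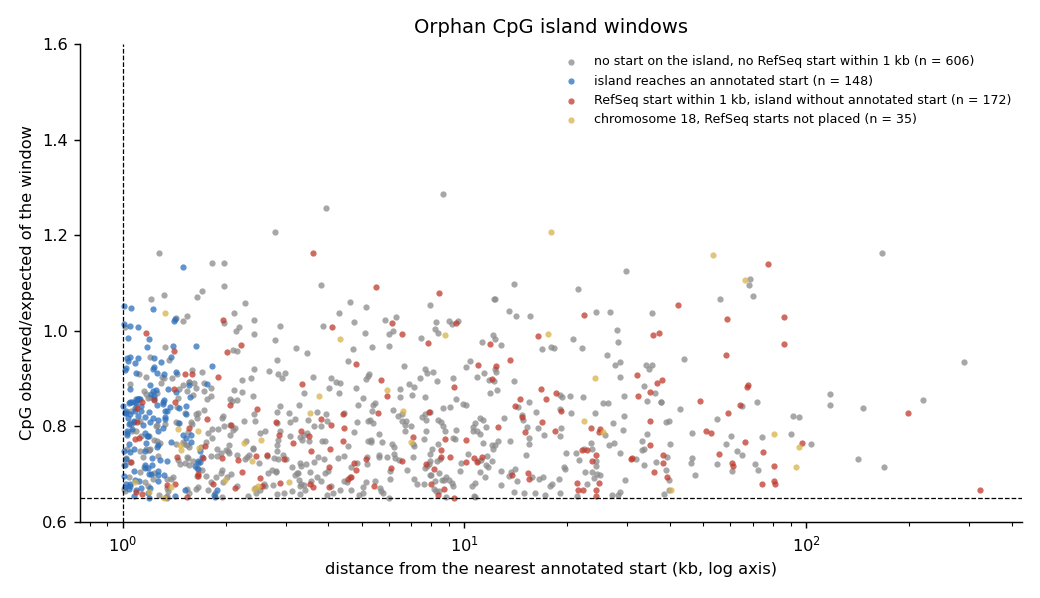
The 961 orphan windows by distance from the nearest annotated start (kb, log axis) and CpG observed/expected ratio; dashed lines are the limits of the rule and colours the 4 groups by start. The 148 windows on an island that reaches a start all lie under 2 kb, while the 172 others at a RefSeq start run from 1061 bp to 321776 bp.

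The orphan windows came from 837 called peaks, of which 731 held 1, 90 held 2, 14 held 3 and 2 held 4. The number of summit windows kept from a peak, read from the window names, is the only hint of breadth in the list. Peaks with 2 or more kept windows held 460 orphan windows (47.9%, 44.7% to 51.1%), between the 53.3% of island windows at starts and the 29.4% of CpG-poor windows away from starts. The same peak also kept a window at a start for 145 orphan windows (15.1%) and for 2.17% of the CpG-poor windows. A window at a start lay within 5 kb of 367 orphan windows (38.2%, 35.1% to 41.3%), against 13.4%.

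Neither peak with 4 orphan windows kept a window at a start. That of Lor is described above. The peak upstream of Fat1, an atypical cadherin, kept 6 windows in all, and its orphan windows lay 11768 bp, 12121 bp, 12835 bp and 14956 bp from the Fat1 start on islands of 1887 bp and 1601 bp. Of the 14 peaks with 3 orphan windows, 3 lay in introns of Bcor and are given below with the gene. Others without a start window lay in introns of Kdm6b, a demethylase of the Polycomb mark H3K27me3 (1974 bp to 3330 bp from a start), and Csf2ra, a cytokine receptor subunit (1193 bp to 2347 bp). The peak upstream of Ktn1, which encodes kinectin, began 13772 bp from a start, and that upstream of Epb4.1l3, which encodes a membrane skeleton protein, 80512 bp. Each of their windows lay within 1 kb of a RefSeq start of the same gene, listed there as Ktn1 and Epb41l3. The 3 windows assigned to Nrf1, a factor of mitochondrial biogenesis, lay downstream of it, within 1 kb of the RefSeq start of the noncoding gene Mirc35hg, and another such peak lay at the RefSeq gene 8430419K02Rik. Those at Ptma, which encodes prothymosin alpha, and Zfp827, a zinc finger gene, also kept a window at a start. Of the 3 windows in Zfp521, another zinc finger gene, 2 were in introns and 1 in a coding exon.

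Protein-coding genes received orphan windows by the gene body that held the midpoint or, failing that, by the nearest start within 100 kb. By this rule 720 of 22208 genes had an orphan window, a background of 3.24%, and 29 windows had no gene. Of the 720, 562 had 1 window, 127 had 2, 24 had 3, and 7 had more. Gm20388 had 6, but its annotated body runs from 122434741 to 126869622 of chromosome 8 across other genes, so the 6 windows lie apart. Ptma, 1700001O22Rik, Lor, Nr2f2 and Fat1 had 4 each. Nr2f2 encodes a nuclear receptor of mesenchyme and veins, and its windows lay 1209 bp, 1660 bp, 9720 bp and 14227 bp from a start.

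Bcor had 18 orphan windows, more than any other gene. It encodes a corepressor of BCL6 that is part of a variant Polycomb complex, and it spans positions 11613866 to 11737481 of chromosome X on the minus strand. Of the 18, 15 lay in its introns and 3 were intergenic, at 14769 bp, 22278 bp and 72456 bp from an annotated start. The gene and its flanks of 2 kb held 33 windows in all, 6 of them within 1 kb of an annotated start, of which Bcor has 4. The 15 windows in introns sat on islands in several groups along the gene. A pair lay 1.65 kb and 1.97 kb from the first start, a pair at 24.9 kb and 26.7 kb, 7 between 68.5 kb and 72.7 kb, and 4 between 81.0 kb and 83.0 kb. Their GC contents ran from 57.6% to 72.4% and their observed/expected ratios from 0.688 to 0.983. The group between 68.5 kb and 72.7 kb was 7095 bp to 11311 bp from every annotated start, and no orphan window of Bcor lay within 1 kb of a RefSeq start.

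**Figure D4:**
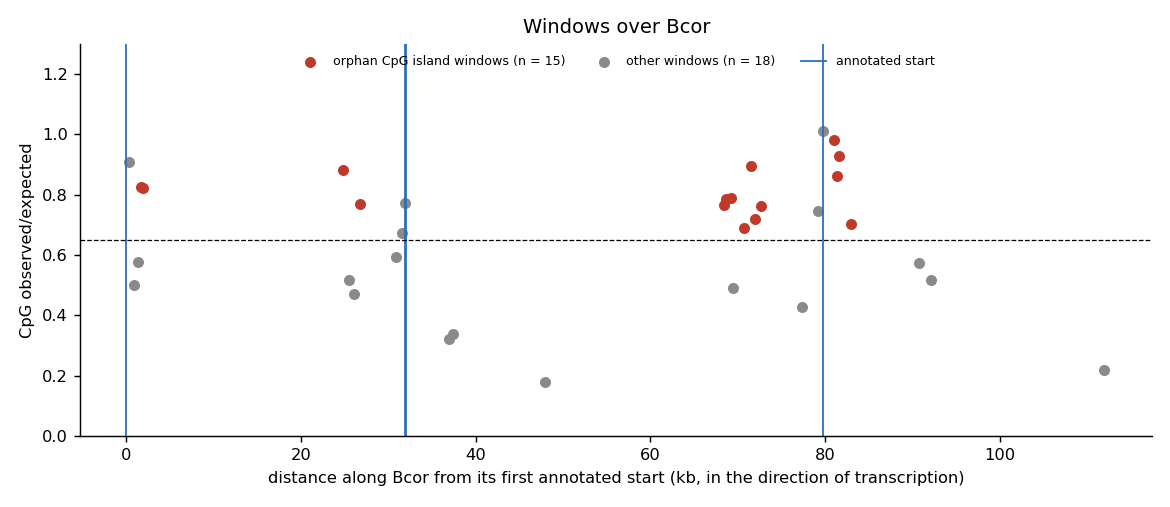
The 33 windows over Bcor by distance from its first annotated start (kb, in the direction of transcription) and CpG observed/expected ratio (vertical axis); red points are the 15 orphan windows in the gene, grey points other windows, blue lines the 4 annotated starts and the dashed line the limit of 0.65. The orphan windows fall into groups, 7 of them between 68.5 kb and 72.7 kb.

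Chromosome X held 33 orphan windows, 2.89% of its windows, and 18 of them were those of Bcor. Without these the share was 1.34%, inside the range over autosomes of 1.17% (chromosome 16) to 2.52% (chromosome 19), whose median was 1.96%.

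Ccnd1, which encodes cyclin D1, had 3 upstream windows at 1864 bp, 2597 bp and 3610 bp, each the only kept window of its peak. Cdk6, the kinase partner of D cyclins, had 3 at 1092 bp, 1346 bp and 2239 bp on an island of 2595 bp, all within 1 kb of the RefSeq start of the noncoding gene Gm36470. Ccne1, which encodes cyclin E1, had 3 at 14326 bp, 38055 bp and 38121 bp, of which the 2 farther ones overlap and lie 32 bp and 34 bp from the RefSeq start of the noncoding gene Gm30771. The CTCF match printed above for Ccne1 is in this pair. The other genes with 3 that the naming rule took were Rpl30-ps6, Neurog2, Acot11, Sh2b3, Tnrc18, Nrf1, Eif4e3, Bhlhe41, Zfp541 and Zfp827.

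The stained proteins were then examined. Epcam had 1 orphan window (chr17:88036258-88036757), in an intron 1189 bp from a start, with a GC content of 62.8% and 42 CpG, and the same peak kept a window at the start. Hif1a, which encodes the stained HIF1a protein, and Ptprc, which encodes CD45, had none.

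Gene lists were counted against the background of 3.24%. Signalling receptors and feedback inhibitors had the highest count, with 14 of 49 genes (28.6%, exact 95% interval 16.6% to 43.3%) and 20 windows. The length and CpG content of the genes on each list were not compared. Of the 6 genes with 2 windows each, 4 encode feedback inhibitors of Ras and ERK signalling. Dusp6, a phosphatase of ERK, had windows at 1370 bp and 1813 bp upstream in a peak that kept 8 windows, the most of any peak with an orphan window. Dusp4, a related phosphatase, had intronic windows at 1048 bp and 1948 bp. Spry2 and Spred2, inhibitors of receptor tyrosine kinase signalling, had windows at 1053 bp and 2064 bp and at 1236 bp and 4063 bp. Fzd1 and Fzd7 had the coding-exon windows given above. Etv5, an ETS factor induced by ERK, the receptors Igf1r, Insr and Notch3, the Notch ligands Jag1 and Jag2, and the inhibitory Smads Smad6 and Smad7 had 1 each. Of these, that of Insr lay 28496 bp from a start and that of Smad7 24129 bp, and those of the other 6 lay between 1006 bp and 4429 bp.

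Epithelial and hypoxia genes had fewer. Of 33 luminal epithelial genes, 4 had an orphan window (12.1%, 3.40% to 28.2%): Grhl2, a grainyhead factor of epithelial junctions, and Tcfap2a, an AP-2 factor, with 2 each, and Epcam and Esrp1, an epithelial splicing regulator, with 1 each. The windows of Tcfap2a lay in introns at 1173 bp and 4822 bp. Of the Grhl2 windows, 1 lay 1290 bp from a start, and the other, 97180 bp away, was 91 bp from the RefSeq start of the noncoding gene Gm34820. Basal genes had 2 of 20 (10.0%), Sox10 and Jag2. Hypoxia response genes had 5 of 50 (10.0%, 3.33% to 21.8%). Pfkfb3, which raises glycolytic flux, had windows at 1192 bp and 33509 bp, and Adm, a vasodilator peptide, Bhlhe40, a repressor induced in low oxygen, Mxi1, a Myc antagonist, and Zfp395 had 1 each. Another window lay 35 bp from the RefSeq start of Pfkfb3 but was assigned to Rbm17, so it is not in this count.

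Chromatin and developmental regulators were described by the same rule. Of 49 Polycomb and Trithorax genes, 5 had an orphan window (10.2%, 3.40% to 22.2%), and Bcor supplied 18 of their 23 windows. Pcgf5, a subunit of a variant Polycomb complex, had 2, the farther of them 30890 bp from an annotated start and 152 bp from its own RefSeq start. Cbx8, a Polycomb chromodomain protein, and Tet3, also on the list, had 1 each, at 12495 bp and 15113 bp. Tet3 encodes an enzyme that oxidises methylcytosine, so the count of 5 is not of Polycomb and Trithorax genes alone. Homeobox and other developmental transcription factors had 13 of 150 (8.67%, 4.70% to 14.4%). Neurog2, a proneural factor, had 3, Irx3 had 2, and Foxc1 and Irx4 were among those with 1. Of 47 imprinted genes 3 had any, Trappc9 with 2 and H13 and Rasgrf1 with 1 each.

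Lists for other cell types were counted in the same way. Pan-immune genes had 2 of 20 (10.0%, Sfpi1 and Vav1) and T and NK cell genes 1 of 16 (6.25%, Bcl11b). Endothelial genes had 1 of 16 (6.25%, Sox17) and neuronal genes 2 of 24 (8.33%, Grin1 and Slc17a7). Housekeeping genes had 1 of 20 (5.0%, Actb). Macrophage genes had 0 of 19, with an exact upper bound of 17.6%, and fibroblast genes 0 of 20, with an upper bound of 16.8%. With lists of this size the intervals reach from under 3.24% to well above it. Assigned by the nearest start alone, Sfpi1 and Grin1 lost their windows, while the endothelial gene Robo4 and the imprinted gene Cdh15 gained 1 each, and the counts of the other lists were as given. The list counts presence of a window and not its signal, so these counts say nothing of how many cells of a type were in the pool.

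Binding-site letters in the windows were searched on both strands, with no score or conservation. Several sites that are common at promoters were in a smaller share of orphan windows than of island windows at starts. All of those given here except the YY1 site contain CpG, and CpG content chose the windows, so their excess over the CpG-poor windows is a description of composition. The ETS site CCGGAAG was in 132 windows (13.7%, 11.6% to 16.1%), against 22.9% of island windows at starts (22.2% to 23.7%), 4.31% of CpG-poor windows away from starts and 9.47% of all windows. The YY1 site AANATGGC was in 5.41% (4.07% to 7.04%), against 12.8% at starts (12.2% to 13.5%), 7.26% of the CpG-poor and 8.48% of all windows. The SP/KLF site GGGGCGGG was in 36.1% (33.1% to 39.2%), against 44.3% at starts, 4.70% and 16.3%. The ZBTB33 site TCTCGCGA was in 1.25%, against 2.68%, 0.0478% and 0.702%. The nuclear respiratory factor site GCGCANGC was in 25.5% (22.8% to 28.4%), against 29.8%, 3.26% and 10.4%.

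CTCF matches were in a larger share of orphan windows than of island windows at starts. They were in 23 orphan windows (2.39%, 1.52% to 3.57%) and in 0.903% of the island windows at starts (0.735% to 1.10%), against 2.14% of the CpG-poor windows and 894 of all 50000 windows. In peaks that kept 2 or more windows the orphan share was 1.52% (0.614% to 3.11%), whose interval overlaps that of the island windows at starts. Within the orphan windows, 8 of the 147 in coding exons held one (5.44%, 2.38% to 10.4%) and 19 of the 606 with neither kind of start did (3.14%, 1.90% to 4.85%). None of the 148 on islands that reach a start did, with an exact upper bound of 2.46%. The ETS site was in 4.73% of those 148 windows (1.92% to 9.50%), against 17.4% (12.1% to 24.0%) of the 172 at a RefSeq start on an island without annotated start and 15.7% (12.9% to 18.8%) of the 606. None of the 35 on chromosome 18 held it, with an exact upper bound of 10.0%.

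The core hypoxia site, ACGTG or the same with G in place of the first A, was in 83.8% of orphan windows (81.3% to 86.0%) and 85.5% of island windows at starts, against 46.7% of the CpG-poor and 58.7% of all windows. It contains a CpG, and CpG content chose the windows. The E-box CACGTG, which overlaps that core, was in 15.4%, 13.9% and 8.01% of the same 3 classes. Sites common at enhancers, with no CpG among their fixed letters, were in a smaller share of orphan windows than of the CpG-poor windows. The open positions (N) of the C/EBP and grainyhead sites can form a CpG, so these sites are not strictly free of it. The AP-1 site TGANTCA, read by Fos and Jun proteins, was in 6.14% of orphan windows (4.71% to 7.85%), against 19.2% of the CpG-poor windows and 14.8% of all windows. The RUNX site TGTGGT followed with 13.4%, 33.2% and 27.5% in the same order. The site of GATA factors, AGATAA, had shares of 7.28%, 17.0% and 13.6%. For C/EBP, written TTGCNNAA, they were 10.5%, 22.9% and 19.0%, and for TEAD, written GGAATG, they were 18.3%, 28.7% and 24.7%. The forkhead site TGTTTAC was in 4.37%, 7.43% and 6.12%. The grainyhead site AACCNGTT was in 2.71%, 6.26% and 5.05%. Against island windows at starts, whose composition is closer, the TEAD share was higher, since these held 14.8% (14.2% to 15.5%) and the interval in orphan windows was 15.9% to 20.9%. The intervals overlapped for AP-1 (5.04% at starts), GATA (5.55%), the forkhead site (3.05%), C/EBP (9.56%), the grainyhead site (2.12%) and RUNX (14.8%), of which RUNX alone was lower in the orphan windows. For NFI, REST and p53 sites the count was 0 of 961, with an exact upper bound of 0.383%. These long sites were also rare over all windows, at 0.114%, 0.062% and 0.026%, so a count of 0 here says little. Median GC content was 64.2% in orphan windows, 65.6% at starts and 50.0% in the CpG-poor windows, and its part in the motif shares was not tested.

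**Figure D5:**
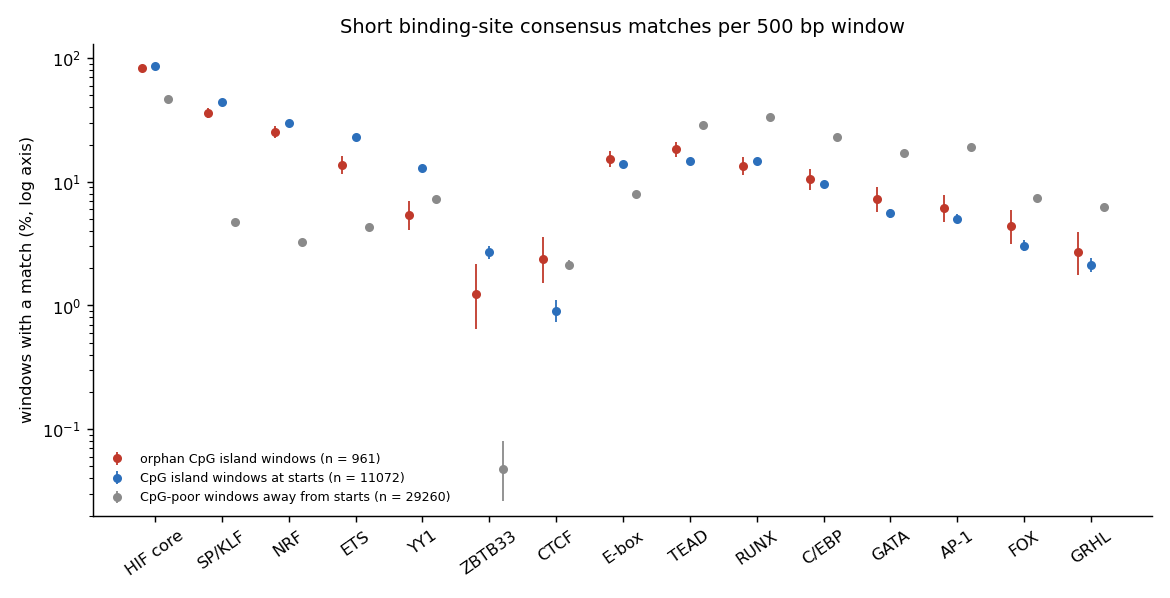
Share of windows with at least 1 match (%, log axis) for 15 consensus sequences in 3 classes of windows; points are shares and lines exact 95% intervals. Orphan windows lie below island windows at starts for ETS (13.7% against 22.9%) and YY1 (5.41% against 12.8%) and above them for CTCF (2.39% against 0.903%).

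Repeated sequence took a small share. Counted over the genome by 32-base words, 10 orphan windows (1.04%) had at least 50% of their sampled words at more than 1 place, against 0.479% of island windows at starts. They included the windows on chromosome 12 at 219309 bp and 199037 bp from a start, which are next in distance after the E2f7 side window and had 66.7% and 86.7% of words repeated. The E2f7 side window itself, 289450 bp from a start, had none, and neither did the fifth farthest, in an intron of Otud7a at 169271 bp. Reads that map to several places were removed by the authors, so windows in such sequence rest on the parts that differ.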

How the data were processed

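Trimmed reads were mapped by the authors to the mouse build mm9 (Bowtie2, version 2.1.0). Reads that mapped to more than 1 place, duplicates marked by Picard (version 1.79) and mitochondrial reads were dropped. The authors then pooled the cells and called summits with MACS2, whose version no source read here gives. The submitters' processing notes list hg19 as well as mm9. Summits were widened to fixed windows and those with the lowest q-values kept. The deposited list gives window positions and names only. The depth behind each window is therefore unknown.

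Starts came from GENCODE M1 and sequence from the mm9 genome (NCBIM37). Chromosomes 1 to 19 and X were used. Islands were scanned with a sliding window of 200 bp (500 bp for the longer and richer set), and neighbouring hits were joined. RefSeq promoter sequences were placed by exact matches of 100 bases around the start. Motifs were searched as letters on both strands, and those of 10 or more letters with degenerate bases are given by name. Repeated sequence was counted as 32-base words found at more than 1 place, because the genome given was not soft-masked, so the planned share of masked bases was not computed. Shares have exact (Clopper-Pearson) 95% intervals. Neither tests nor p-values were used, since the list is 1 sample. The island scan, the distances to starts and the coding of words were tested on simulated data. The motif search was not.

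The members and gene lists were chosen with earlier results of these data known. Named were Epcam, Hif1a and Ptprc, the 20 genes with most orphan windows (ties by chromosome and position), up to 4 genes per list, the peaks with 3 or more orphan windows, the 5 windows farthest from a start, and sequences of up to 8 windows in introns or intergenic sequence (chromosome 18 and windows with 50% or more repeated words left out). Genes beyond this rule were named after their values were seen, as were those of the signalling list past its first 4. Alternatives changed the distance, the starts, the composition limits, the islands and the assignment to genes. Python 3.11.15, NumPy 2.4.6, pandas 2.3.3, SciPy 1.17.1 and matplotlib 3.10.9 were used. Some genes that the naming rule took are not reported here.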

Additional observations from a re-analysis of the deposited data

How the results depend on the processing

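Of 75 values of 11 results under the alternatives, 46 stayed within 1.5 times a count or within the exact interval of a share, and 29 moved. A limit of 2 kb left 631 orphan windows, of which 63.9% were intergenic, 44.5% lay over 10 kb from a start (29.2% in the report's set), 0.475% shared a peak with a start window and 0% lay on an island that reaches a start. With protein-coding starts only, the intergenic share was 46.8% and 41.1% lay over 10 kb away. Under this setting 33.0% lay on an island that reaches a start and 35.2% shared a peak with a start window, where starts of any biotype still counted. The windows that this setting adds lie within 1 kb of such a start. Each of them is thus itself a start window, and the rise in the peak share was fixed by definition. Limits of 50% GC and 0.60 gave 32.6% over 10 kb away and 13.0% on an island with a start. Limits of 60% and 0.75 left 510 windows, 45.9% of them intergenic. Peaks that kept 2 or more windows held 460 orphan windows, of which 25.9% lay over 10 kb away and 20.9% were on an island with a start. In this set 31.5% shared a peak with a start window. Such sharing needs a peak that kept 2 or more windows, so that share rises here by definition. Leaving out windows at a RefSeq start and on chromosome 18, a choice made after seeing the data, gave 47.3% intergenic and 26.1% over 10 kb away. Leaving out the Bcor windows, also chosen after seeing the data, and keeping 1 window per called peak moved none of the values. The share of islands away from starts with a window was 16.7% for longer, richer islands, 3.77% with no start within 2 kb and 4.57% with protein-coding starts only. Assignment by the nearest start alone gave 721 genes in place of 720, with pan-immune genes going from 2 to 1, neuronal from 2 to 1, endothelial from 1 to 2 and imprinted from 3 to 4. The ETS share kept within its interval under every alternative run. The CTCF share fell to 1.52% in peaks that kept 2 or more windows. The share with a RefSeq start within 1 kb was 20.3% in the report's set, 23.6% beyond 2 kb and 25.8% with protein-coding starts only. The coding-exon share was 11.9% beyond 2 kb, 11.7% in peaks that kept 2 or more windows, 19.8% with limits of 60% and 0.75, and 18.3% without windows at a RefSeq start and on chromosome 18. The causes of these shifts were not tested beyond what each alternative removes or adds. No paired analysis was possible because the list is 1 pooled sample and no test was run. The list has no scores, counts or replicates, so neither depth nor signal could be weighed.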
